A study of Bos taurus with 88 samples.

Results

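Whole blood of 8 Holstein calves (H, the dairy calves) at 72 h and again at 168 h after birth gave 16 of the 88 samples of the series. The samples were chosen by the breed, age and calf tag in their labels, with no measured value used, and each calf (H1 to H8) contributed 1 sample at each age. The whole series held 22 calves, each bled at 0, 48, 72 and 168 h, and the calves other than H were 7 born to Charolais × Limousin cows (CL) and 7 born to Limousin × Friesian cows (LF). For each sample 1 RNAseq library was deposited as raw read counts per Ensembl gene. The comparison asked how gene expression in blood changed between the third and the seventh day of life.

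The H calves were taken from their dams soon after birth and were housed singly at first. Their first feed was colostrum of their own dam, given by oesophageal tube in an amount of 5% of body weight. Feeding with colostrum of their own dam went on over the first days and still held at 72 h. Between the ages compared here the calves were moved to a group pen and were offered milk replacer and concentrate, so age, housing and diet cannot be told apart. The CL and LF calves, sired by Aberdeen Angus or Charolais bulls, came from another farm and stayed with their dams. Breed, farm and management therefore cannot be told apart when H calves are set beside them. Each H calf carried the same tag at both ages, and the calf was used as a block in the test.

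Whole blood holds red cells, platelets and several kinds of white cell, and its RNA is a mixture of the RNA of all of them. In a newborn calf neutrophils are abundant and lymphocytes gain in share over the following days and weeks, and red cells made before birth, which carry fetal haemoglobin, are gradually replaced. Colostrum supplies antibodies that the calf cannot yet make in quantity. In bulk blood, fewer cells of a type and less RNA per cell cannot be told apart. The genes are given by Ensembl identifier, because no table at hand paired these identifiers with gene symbols. For the same reason the blood origin of the samples was not checked against marker genes, and no role is given for the genes described.

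The 16 libraries held between 15845098 and 37775818 counts on genes, so that 3 counts corresponded to between 0.0794 and 0.189 CPM (counts scaled to a common library total). At 72 h the libraries of calves H5 and H6 stood apart from the other 6. The mean distance of H5 to the other calves, as the root mean square difference in log2 level over the genes tested, was 1.21, and that of H6 was 0.911. The other 6 calves lay between 0.616 and 0.678 at 72 h. At 168 h all 8 calves lay between 0.49 and 0.547, and neither H5 nor H6 stood apart. The mean distance between calves was 0.754 at 72 h and 0.516 at 168 h, a difference that did not pass an exact paired permutation test in which the ages were swapped within calves (p = 0.109, adjusted p = 0.219 over 6 tests). Without H5 and H6 the same distances were 0.505 and 0.512, but these calves were left out for their distances at 72 h, which lowers the 72 h mean by construction.

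**Figure D1:**
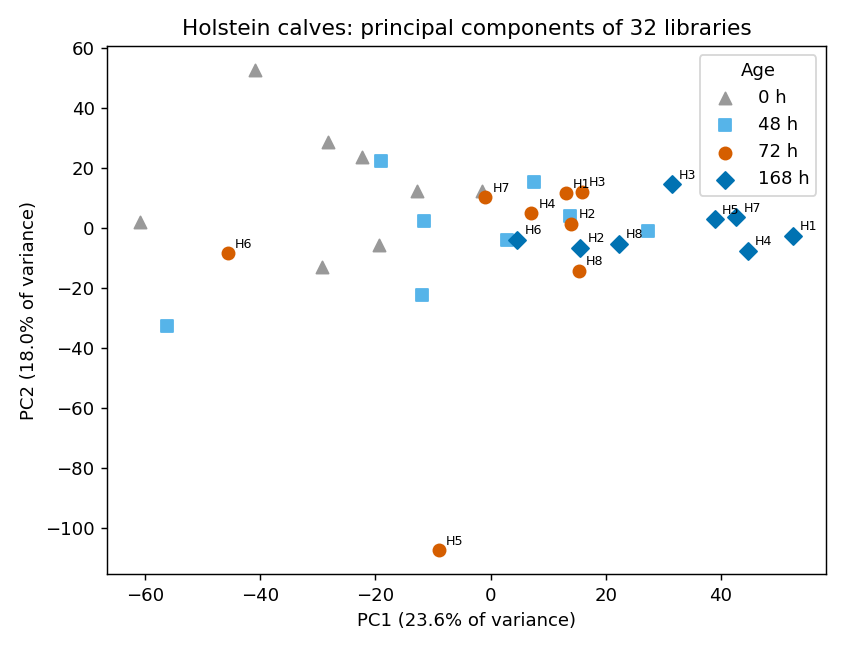
Principal components of the 32 Holstein libraries over the 12541 genes tested, with the share of variance on each axis, where each point is 1 library, shape and colour give the age in hours, and calves are named at 72 h and 168 h. On PC1 the 168 h libraries run from 4.62 to 52.5 and the 72 h libraries from −45.6 (H6) to 15.8, and H5 at 72 h lies alone at −108 on PC2.

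The first principal component of the 32 Holstein libraries, which held 23.6% of the variance, separated most of the 168 h samples from the younger ones. Median scores on it were −25.3 for the 0 h, −4.29 for the 48 h, 10.1 for the 72 h and 35.2 for the 168 h libraries. The ranges of 72 h and 168 h overlapped, because H6 at 168 h scored 4.62 and H2 at 168 h lay close to its own 72 h sample. H6 scored −45.6 at 72 h, below the 0 h samples of the other 7 calves, the lowest of which scored −40.8, and H6 was also the lowest at 0 h (−60.9) and 48 h (−56.2).

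Between 72 h and 168 h, 1127 genes changed in the H calves, 8.99% of the 12541 genes tested. A gene was called differentially expressed (DEG) when its Benjamini-Hochberg adjusted p in edgeR's quasi-likelihood test was under 0.05 and its fold change was at least 1.5. Levels were higher at 168 h for 431 of the DEG (3.44% of the genes tested) and lower for 696 (5.55%). The lower genes made up 61.8% of all DEG. The median log2 fold change over all genes tested was −0.0046 after the scaling between libraries, which sets it near 0, so the changes are relative to the other genes. Without the calf as a replicate block 1151 genes were called, and 948 genes were called in both fits. The number called depended on single calves, since it was 658 without H1 and 684 without H4 against 1127 with all 8 calves. Without both H1 and H3 it was 302, and without both H5 and H6 it was 1357. Of the 1127 DEG, 914 were also called without H5 and H6.

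The DEG at higher levels at 168 h were mostly genes of low abundance. Genes were put into quartiles by their mean level over the 16 samples, so that 25% of all genes tested lay in each. Of the 431 genes at higher levels, 184 (42.7%) were in the lowest quartile and 34 (7.89%) in the highest. The 696 genes at lower levels were spread otherwise, with 237 (34.1%) in the lowest quartile and 214 (30.7%) in the highest. In sum the genes at higher levels took a median of 0.612% of the counts of a library at 72 h (range 0.322 to 0.775%) and 1.42% at 168 h (range 1.11 to 1.83%), and these ranges did not overlap. The genes at lower levels took 10.2% at 72 h (range 9.09 to 33.4%) and 5.36% at 168 h (range 4.27 to 8.3%). The highest of these shares at 72 h was that of H6. All these shares describe genes that were called from the same samples.

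**Figure D2:**
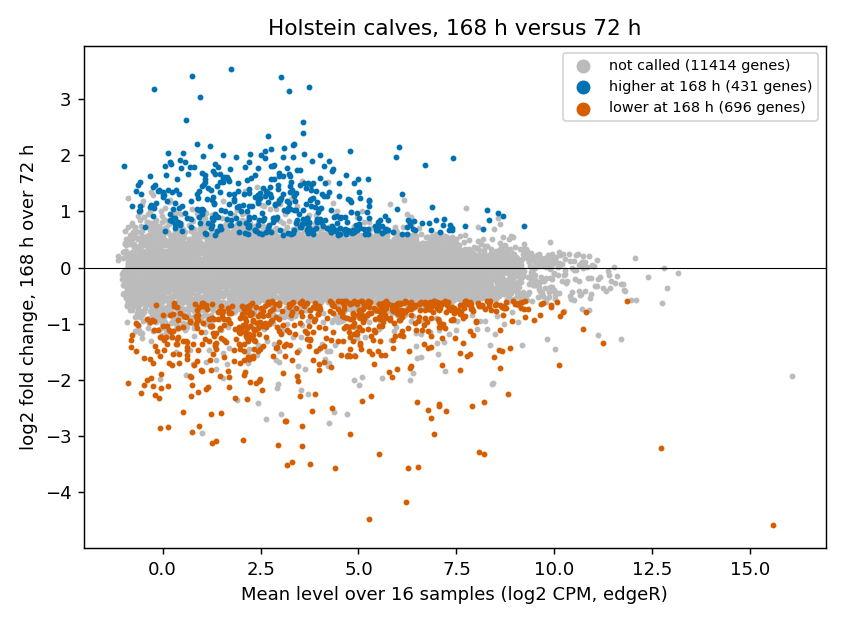
Log2 fold change of 168 h over 72 h in Holstein calves (vertical axis) against the mean level over the 16 samples in log2 CPM (horizontal axis), 1 point per gene tested, with the 431 DEG at higher levels in blue and the 696 at lower levels in orange. DEG at lower levels reach far to the right, where the most abundant genes lie, and the most abundant DEG is the gene with the most negative log2 fold change, −4.59.

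The median log2 fold change was 1.07 among the DEG at higher levels (interquartile range 0.79 to 1.47) and −0.95 among those at lower levels (interquartile range −1.38 to −0.72). A change of at least 2-fold was found for 240 and 321 of them, and a change of at least 4-fold for 26 and 66. All 8 calves moved upwards for 344 of the 431 genes, and all 8 moved downwards for 439 of the 696. At least 7 calves moved in the called direction for 427 and 673 genes. For 118 of the genes at higher levels, every 168 h sample lay above every 72 h sample, and for 14.8% of the genes at lower levels every 168 h sample lay below every 72 h sample. Among all genes tested, the ages did not overlap for 194 (1.55%) in the first direction and 138 (1.1%) in the second. The DEG were called from these same samples, which favours agreement between calves and a gap between the ages.

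Most calves showed the change that the other calves gave. Each calf was left out in turn, the DEG were called from the remaining 7, and the change of the calf left out was then read for those genes. The share of DEG that moved in the called direction was 98.2% in H1, 79.7% in H2, 91.4% in H3, 99% in H4, 68.4% in H5, 92.4% in H6, 95.4% in H7 and 86.4% in H8. Over all genes tested in these fits, between 49.1 and 52.5% were at a higher level at 168 h in the calf left out. H1 and H4, whose omission took away the most DEG, moved most fully with the others, and H5 and H2 moved least.

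The size of the change differed between calves as well. For genes called higher from the other 7 calves, the median log2 change was 1.6 in H1 and 1.32 in H4 but 0.41 in H2, where the other calves gave a median log2 fold change of 1.13. For genes called lower, the median log2 change was −1.15 in H1, −0.4 in H2 and −0.39 in H5. In H5 a change of at least 2-fold in either direction was found for 35.9% of all genes tested, compared with 3.31 to 12.7% in the other 7 calves. The 72 h library of H5 was the one that lay alone on the second principal component.

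The 2 genes with the largest rise among DEG that rose in all 8 calves were at or near the limit of detection at 72 h. The level of ENSBTAG00000017405 at 72 h was 0.384 CPM in H1, 0.457 in H2, 0.571 in H3, 0.211 in H4, 0.627 in H5, 0.467 in H6, 0.859 in H7 and 0.204 in H8, after scaling by trimmed mean of M-values (TMM). At 168 h it was 14.1 CPM in H1, 3.57 in H2, 4.61 in H3, 9.77 in H4, 9.4 in H5, 3.41 in H6, 3.42 in H7 and 1.66 in H8. Every 168 h sample lay above every 72 h sample, and H1 was the highest at 168 h. The mean was 0.472 ± 0.218 CPM (SD, n = 8) at 72 h and 6.24 ± 4.32 CPM (SD, n = 8) at 168 h. On the log2 scale the rise was 3.54 ± 0.39 (standard error), with an adjusted p of 0.00087 in edgeR. This gene was called under all 20 alternative settings in which it was tested.

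ENSBTAG00000003794 had a similar pattern. At 72 h its level was 0.336 CPM in H1, 0.457 in H2, 0.38 in H3, 0.158 in H4, 0.467 in H6, 0.184 in H7 and 0.0817 in H8, with 0 counts in H5, where 3 counts are 0.141 CPM before TMM scaling. At 168 h it was 6.06 CPM in H1, 0.904 in H2, 2.41 in H3, 3.89 in H4, 5.02 in H5, 2.63 in H6, 1.81 in H7 and 1.11 in H8. The ages did not overlap, and the counts behind the values were 0 to 10 at 72 h and 16 to 213 at 168 h. On the log2 scale the rise was 3.41 ± 0.51 (standard error), with an adjusted p of 0.003 (edgeR), and 0.0669 with the multimapping share of the libraries, described further on, as a covariate.

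Both genes were also low at 0 h and 48 h. The median level of ENSBTAG00000017405 was 0.394 CPM at birth and 0.487 CPM at 48 h, against 0.462 CPM at 72 h and 4.09 CPM at 168 h. That of ENSBTAG00000003794 was 0.184 CPM at birth, 0.204 CPM at 48 h, 0.26 CPM at 72 h and 2.52 CPM at 168 h. The highest of the 4 levels was that at 168 h in each of the 8 calves for both genes.

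**Figure D3:**
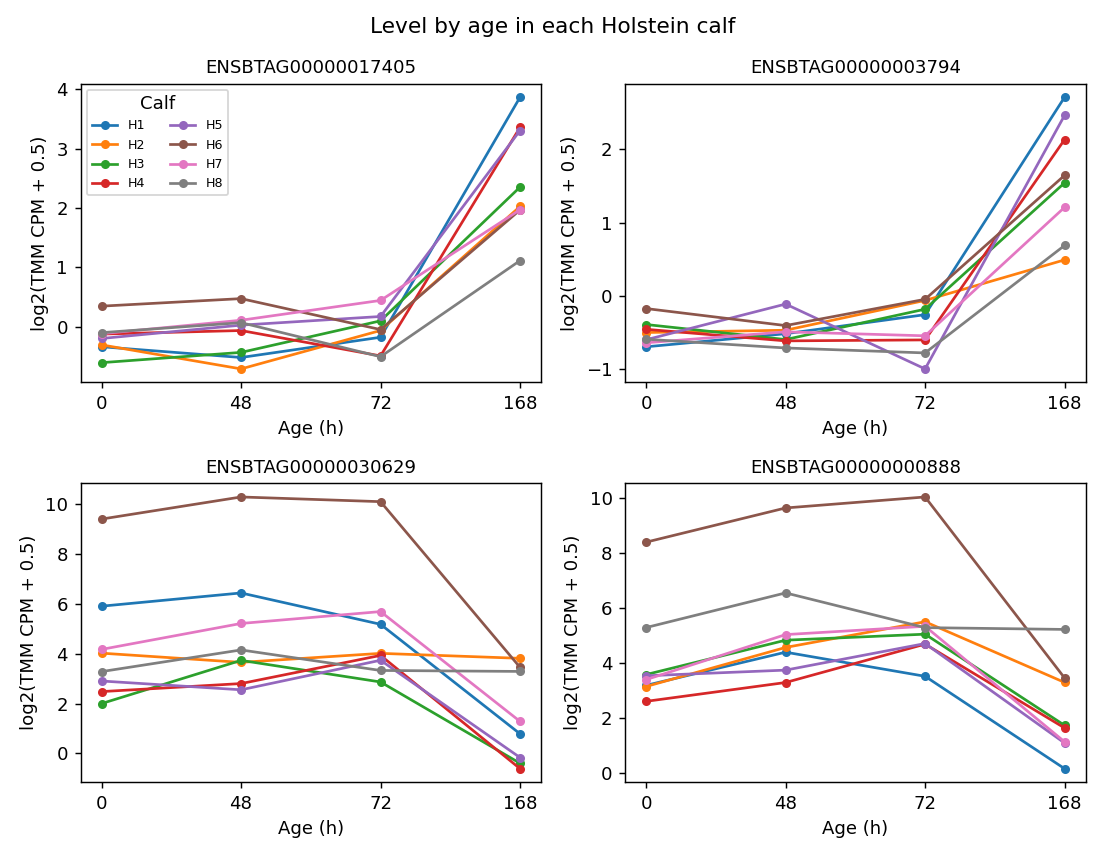
Level of 4 genes as log2 of TMM-scaled CPM plus 0.5 (vertical axis) at 0, 48, 72 and 168 h (horizontal axis, not to scale), with 1 line per Holstein calf. The upper genes stay low until 72 h and are higher in all 8 calves at 168 h. The lower genes are lower at 168 h than at 72 h in all 8 calves, and H6 lies above the others up to 72 h.

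The 2 genes with the largest fall among DEG that fell in all 8 calves had a wide spread between calves. At 72 h ENSBTAG00000030629 was at 35.9 CPM in H1, 15.7 in H2, 6.8 in H3, 14.8 in H4, 12.9 in H5, 1107 in H6, 51.4 in H7 and 9.56 in H8. At 168 h it was at 1.22 CPM in H1, 13.6 in H2, 0.259 in H3, 0.153 in H4, 0.39 in H5, 10.5 in H6, 1.93 in H7 and 9.3 in H8. The ages overlapped, since H2, H6 and H8 at 168 h were above H3 at 72 h, and H2 and H8 hardly moved. On the log2 scale the change was −4.17 ± 0.91 (standard error), with an adjusted p of 0.0155 (edgeR). The call was lost without H1 (log2 fold change −4.02, adjusted p = 0.0531) and without H1 and H3 (−3.93, adjusted p = 0.124), though the change stayed about as large. It was also lost without H5 and H6 (−3.23, adjusted p = 0.1) and with the multimapping covariate (−2.07, adjusted p = 0.2).

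ENSBTAG00000000888 fell with a similar pattern. At 72 h it was at 11 CPM in H1, 44.8 in H2, 32.6 in H3, 25.3 in H4, 25.7 in H5, 1044 in H6, 39.9 in H7 and 38.6 in H8. At 168 h it was at 0.626 CPM in H1, 9.35 in H2, 2.84 in H3, 2.63 in H4, 1.65 in H5, 10.5 in H6, 1.71 in H7 and 36.8 in H8. The ages overlapped only through H8, nearly level between the ages, whose 168 h sample lay above the 72 h samples of H1, H3, H4 and H5. On the log2 scale the change was −3.56 ± 0.62 (standard error), with an adjusted p of 0.0058 (edgeR). Without H1 and H3 the log2 fold change was −3.47 and the adjusted p 0.0641. With the multimapping covariate the log2 fold change was −1.95 and the adjusted p 0.0277. H6 had stood out for this gene at 0 h, with 335 CPM, and at 48 h, with 792 CPM. This gene had also risen between 0 h and 48 h (log2 fold change 1.15, standard error 0.14, adjusted p = 0.00017).

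Many of the genes at lower levels at 168 h had risen in the first days. The libraries at 0 h and 48 h are other samples of the same 8 calves, and the same test on them called 742 genes risen at 48 h (5.93% of 12508 tested) and 655 fallen (5.24%). Of the 742 risen genes, 739 were also tested between 72 h and 168 h. Of these 739 genes, 198 (26.8%) were lower at 168 h than at 72 h, against 5.55% of all genes tested. These 198 were 28.4% of the genes at lower levels at 168 h. A further 13.9% of the risen genes, against 3.44% of all genes tested, were higher at 168 h than at 72 h, and they were 23.9% of the genes at higher levels. Of the 655 genes that had fallen by 48 h, 614 were also tested between 72 h and 168 h. Among these 614 genes, 44 (7.17%) were later higher and 23 (3.75%) later lower, against 3.44 and 5.55% of all genes tested. Without the replicate block in both comparisons, 120 genes had risen first and were lower later, in place of 198, and they were 16.5% of the genes at lower levels, where 3.96% of all genes tested had risen. Without H1 and H3 they were 78, or 42.2% of a shorter list of 185 genes at lower levels, against 5.8% of all genes. With the multimapping covariate described further on they were 41, or 25.3% of 162, against 4.21% of all genes.

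Over the 4 ages most of the genes at lower levels at 168 h were also below their 72 h level at birth. Their median log2 level relative to 72 h was −0.47 at birth, −0.19 at 48 h and −0.84 at 168 h, and 571 of the 696 were below their 72 h level at 0 h. At 168 h, 529 of the 696 lay below their level at 0 h and 691 below their level at 48 h. The genes at higher levels showed no common course up to 72 h, with a median log2 level relative to 72 h of −0.01 at birth, 0.0079 at 48 h and 0.89 at 168 h. Of these 431, 399 were above their 0 h level at 168 h and 430 above their 48 h level. The 72 h and 168 h values of these genes chose them, so the course is a description. For the genes at lower levels this choice favours high values at 72 h and low values at 168 h against any other age. For the genes at higher levels it favours the reverse. The same counts were not made over all genes tested.

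The reads that mapped to several places were more numerous at 72 h than at 168 h in most calves. Reads mapping to several places in the genome, which are not counted on any gene, took 12.2% of the reads in H1, 13.7% in H2, 17.4% in H3, 17.4% in H4, 23.2% in H5, 45.7% in H6, 24.1% in H7 and 17.2% in H8 at 72 h. At 168 h the shares were 7.12% in H1, 13.7% in H2, 9.63% in H3, 9.62% in H4, 7.16% in H5, 12.7% in H6, 7.61% in H7 and 20.6% in H8. The share was lower at 168 h in 7 of 8 calves and higher in H8. The mean difference was −10.4 ± 11.5 percentage points (SD, n = 8), which had p = 0.0234 in an exact two-sided paired permutation test and an adjusted p of 0.141 over 6 tests of library measures, 4 in H calves and 1 in each beef breed. The smallest p that 8 calves allow in this test is 0.0078.

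**Figure D4:**
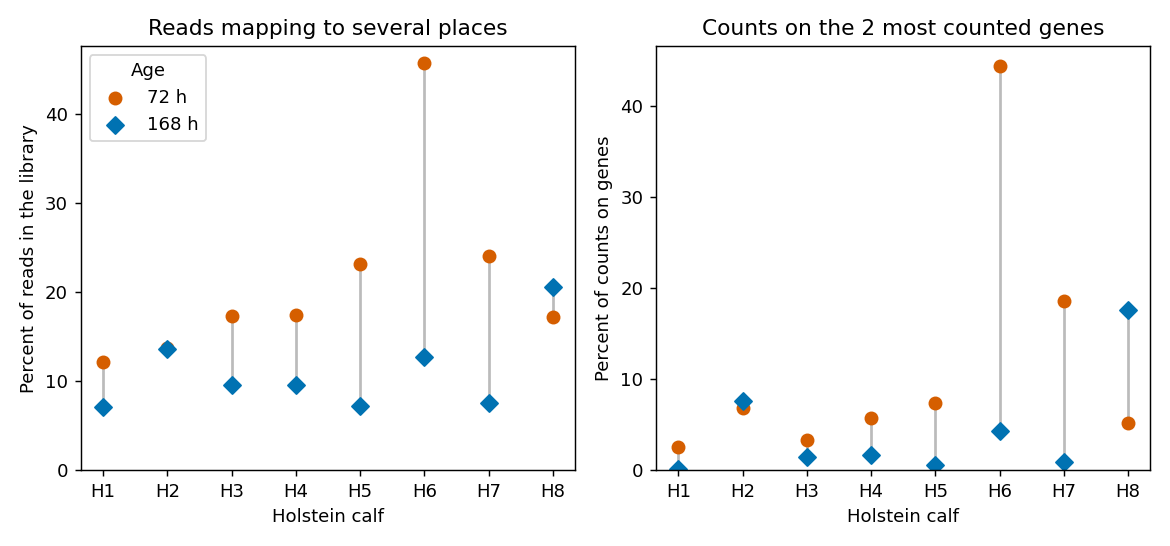
Share of reads mapping to several places, in percent of the reads of a library (left), and share of the counts on the 2 most counted genes, in percent of the counts on genes (right), for each Holstein calf at 72 h (circles) and 168 h (diamonds). H6 at 72 h is the highest in both panels, at 45.7% and 44.3%, and H8 is the calf in which both shares were higher at 168 h by more than 3 percentage points.

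The 2 most counted genes of the 16 libraries together took between 2.56 and 44.3% of the counts on genes at 72 h, and between 0.114 and 17.6% at 168 h. Their share was lower at 168 h in 6 of 8 calves and higher in H2 and H8 (exact two-sided paired permutation test, p = 0.227, adjusted p = 0.272). One of them, lower in 7 calves, was the DEG with the most negative log2 fold change, −4.59 (adjusted p = 0.0306, edgeR). The other was lower in 5 calves and was not a DEG (log2 fold change −1.92, adjusted p = 0.221, edgeR). When the 6 genes over 10000 CPM in any sample were removed, 1084 of the 1127 DEG were also called.

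With the multimapping share of each library as a covariate beside the calf, 265 genes were called, 254 of them among the 1127 DEG. Of these 254, 102 were higher and 152 lower at 168 h. All 1127 DEG kept their direction in that fit, and their median log2 fold change was 1.02 among the genes at higher levels and −0.85 among those at lower levels, against 1.07 and −0.95 without it. In the 16 Holstein libraries at 0 h and 48 h, which were not used to call the DEG, the level of 235 of the 696 genes at lower levels (33.8%) had a Pearson correlation over 0.5 with the multimapping share, against 12.2% of all genes tested. Without H6 these shares were 10.8% and 4.9%. Of the 431 genes at higher levels, 6.73% had a correlation over 0.5 and 7.66% one under minus 0.5. Among all genes tested these shares were 12.2 and 11.8%. Without H6 they were 1.16 and 6.03% of the genes at higher levels, against 4.9 and 5.17% of all genes tested. These libraries share calves, and the correlations are given as a description. The part of the multimapping share in the changes between 72 h and 168 h was not tested further.

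Nearly all of these DEG had a log2 fold change of the same sign in the beef calves. Of the genes at higher levels in H calves at 168 h, 98.6% of the 429 tested in LF calves and 97.9% of the 430 tested in CL calves had a log2 fold change above 0 there, compared with 73.9% (LF) and 71.6% (CL) of all genes that had the same sign as in H calves. Of the genes at lower levels, 98.1% of 683 in LF and 98.7% of 685 in CL calves had a log2 fold change below 0. The median log2 fold change of the genes at higher levels was 1.06 in H, 0.73 in LF and 0.47 in CL calves. For the genes at lower levels it was −0.94 in H, −0.98 in LF and −0.71 in CL calves. The genes were chosen by their change in H calves, which favours a larger change there.

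No gene passed the test of a difference between H and beef calves in its change from 72 h to 168 h. With edgeR's quasi-likelihood test of the interaction, 0 of 13356 genes (0%) passed the threshold against CL calves and 0 (0%) against LF calves, and the lowest adjusted p-values were 0.541 and 0.461. DESeq2 called 0 genes in both as well. At an unadjusted p under 0.05, edgeR counted 1136 genes (8.51%) against CL and 1373 (10.3%) against LF calves. This does not show that the changes were alike. Among the 431 genes at higher levels, the median difference in log2 fold change was 0.55 against CL and 0.33 against LF calves, with a larger rise in H calves. Among the 696 genes at lower levels it was −0.26 against CL and −0.057 against LF calves, with a larger fall in H calves. Choosing the genes by their change in H calves favours a larger change there in both lists.

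**Figure D5:**
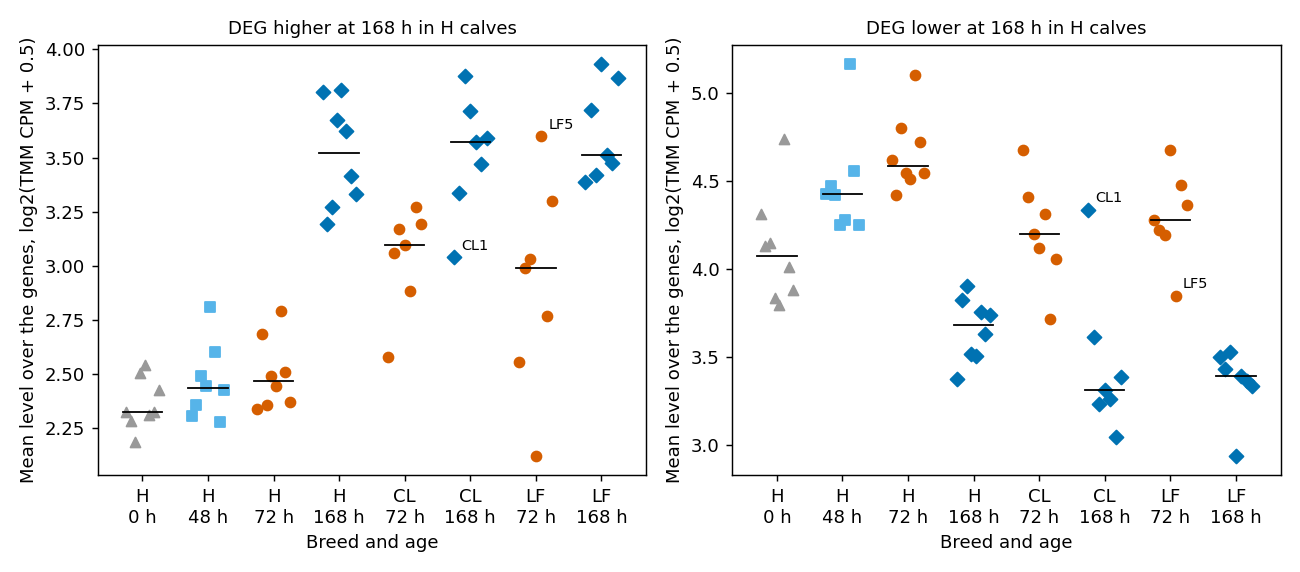
Mean level, as log2 of TMM-scaled CPM plus 0.5, over the 431 DEG at higher levels (left) and the 696 at lower levels (right) at 168 h in Holstein calves, for each library by breed and age, with 1 point per library and a line at the median. In H calves the 72 h and 168 h libraries do not overlap in either panel, and LF5 at 72 h and CL1 at 168 h lie apart from the other libraries of their breed and age.

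The mean log2 level over the 431 genes at higher levels was 2.34 to 2.79 in H calves at 72 h and 3.19 to 3.81 at 168 h, and that over the 696 genes at lower levels was 4.42 to 5.1 at 72 h and 3.37 to 3.9 at 168 h. At 0 h and 48 h, the first list was between 2.18 and 2.81 in all 16 samples, and none reached the lowest 168 h sample. At 72 h the same list stood at a median of 3.09 in CL and 2.99 in LF calves, above the 2.47 of H calves, whereas at 168 h the medians were 3.52 in H, 3.57 in CL and 3.51 in LF calves. Both lists were chosen by the change between 72 h and 168 h in H calves, which favours a larger change there. The part of this choice in the narrower gap of the first list at 168 h was not tested. For the second list the medians were 4.58 in H, 4.2 in CL and 4.28 in LF calves at 72 h. At 168 h they were 3.68, 3.31 and 3.39, so that the H median was the highest at both ages. The ranges overlapped, since CL calves ran from 3.72 to 4.68 and LF calves from 3.85 to 4.67 at 72 h. At 168 h they ran from 3.05 to 4.34 and from 2.94 to 3.53. The difference between breeds within an age was not tested.

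In the beef calves, 2 libraries lay apart from the others of their breed and age in these genes. Whether their labels are right was not tested. The library labelled CL1 at 168 h had a mean log2 level of 3.04 over the genes at higher levels and 4.34 over those at lower levels, within the CL range at 72 h (2.58 to 3.27 and 3.72 to 4.68) and outside that of the other 6 CL calves at 168 h (3.34 to 3.88 and 3.05 to 3.61). The library labelled LF5 at 72 h had 3.6 over the genes at higher levels, within the LF range at 168 h (3.39 to 3.93). Over those at lower levels it had 3.85, below the other 6 LF calves at 72 h (4.19 to 4.67). That value was above the LF range at 168 h (2.94 to 3.53). From 72 h to 168 h, CL1 went from 2.58 to 3.04 and from 4.68 to 4.34, the direction of H calves in both lists. LF5 went from 3.6 to 3.51 in the first list, against that direction, and from 3.85 to 3.39 in the second, with it. Without CL1, 97.7% of the genes at higher and 98.4% of those at lower levels had the sign of H calves in CL calves, and without LF5 the shares were 99.3 and 98.1% in LF calves. Without these calves, 0 genes again passed the interaction test against CL and LF calves, with 1109 and 1338 genes at an unadjusted p under 0.05 (edgeR).

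The 4 genes described above showed the same direction in the beef calves. ENSBTAG00000017405 was higher at 168 h in 6 of 7 LF calves (log2 fold change 3.27 ± 0.64, standard error, adjusted p = 0.0162, edgeR) and in 6 of 7 CL calves (2.67 ± 0.45, adjusted p = 0.0083). The calves in which it was not higher were LF5 (3.05 CPM at 72 h and 2.92 at 168 h) and CL1 (0.473 and 0.47). These are the calves with the 2 libraries that lay apart in the lists of DEG, which include this gene. ENSBTAG00000003794 was higher in 6 of 7 LF and 7 of 7 CL calves. ENSBTAG00000030629 was lower in 6 of 7 calves of each breed, with a log2 fold change of −5.4 in LF (adjusted p = 0.0176, edgeR) and −6.4 in CL calves (adjusted p = 0.0687). ENSBTAG00000000888 was lower in 7 of 7 LF calves (adjusted p = 0.0134, edgeR) and in 6 of 7 CL calves (adjusted p = 0.14). The share of reads mapping to several places did not pass the test in either beef breed, with a mean of 13.8% at 72 h and 10.2% at 168 h in CL calves (exact paired permutation test, p = 0.297) and of 11.5 and 8.33% in LF calves (p = 0.156).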

How the data were processed

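The authors extracted RNA from jugular whole blood, made libraries that do not keep the strand, removed adapters (cutadapt, TrimGalore), aligned to the UMD3.1 cattle genome with STAR, dropped samples with few reads and deposited raw counts per Ensembl gene. The unstranded count was used, and reads split evenly between strands (50.2 to 51.1% on the first). STAR counts no multimapping read on a gene, so near-identical genes can be undercounted.

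Counts of the 24616 genes were tested in edgeR 4.0.16 (R 4.3.3), with the quasi-likelihood test, robust dispersion, TMM scaling, the default filter on low counts and the calf as a block. Only the samples compared entered a fit, 16 here and 44 for the difference between breeds. The standard error is the log2 fold change over the square root of F. Levels are TMM-scaled CPM over the 60 libraries used, with 0.5 added before log2. Distances and exact tests used Python 3.11.15. DESeq2 1.42.0 was an alternative. Tests were tried on simulated counts first.

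Samples with the same tag were taken to come from the same animal. Deviations from the age mean correlated across genes at 0.262 on average between both ages within a calf (0.0237 to 0.506) and at −0.0361 between calves. Deviations from a mean of the same calves sum to 0, which by itself pushes the value between calves below 0. In 5 calves the 168 h sample correlated most with the 72 h sample of the same tag. In H2, H5 and H8 it did not. The labels number the RNA of H1 and H3 at 168 h outside the sequence of their other samples, and their own correlations were 0.347 and 0.454. All 56 pairs of samples within an age differed beyond sampling noise (chi-square per degree of freedom at least 52.9). The floor of 3 counts covers counting error only.

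The samples and tests were chosen with earlier results of these data known. The genes named are, among DEG with a single direction in all 8 calves, the 2 that rose most and the 2 that fell most. The rest of the rule for named genes, the gene lists and the marker lists need symbols and were not applied (0 identifiers matched). Beef samples at 0 h and 48 h were not used. Reading the change of each left-out calf, the library measures, the overlap with earlier changes as a result and the settings without H5 and H6, without CL1 and LF5, with the multimapping share and without the most counted genes were added after seeing the data.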

Additional observations from a re-analysis of the deposited data

Results flagged for a closer look

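Values were looked at for a single sample far from the other 7 in 20 sets of values (5 library measures, the distance to the other calves and 4 gene levels at each age), where chance gives about 1 in 20. H6 at 72 h lay far from the others in the share of multimapping reads (45.7%, next 24.1%), reads on no gene (8.92%, next 16.4%), reads on genes (43.5%, next 55.4%) and the second most counted gene (23.6% of counts, next 4.57%). The same library was far from the others in ENSBTAG00000030629 (1107 CPM, next 51.4) and ENSBTAG00000000888 (1044 CPM, next 44.8). At 168 h H8 lay apart in reads on no gene (19%, next 22.7%), the second most counted gene (3.5%, next 0.919%) and ENSBTAG00000000888 (36.8 CPM, next 10.5). The 9 values come from 2 libraries, and these measures are not independent of each other.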

How the results depend on the processing

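The 1127 DEG (3.44% of genes tested higher and 5.55% lower at 168 h) became 1151 (3.37 and 5.81%) without the replicate block. Leaving out each calf in turn gave 658 to 1457 DEG, 2.03 to 4.29% higher and 3.21 to 7.31% lower, the lowest without H1. DEG numbered 216 (0.805% higher, 0.917% lower) in the test against a fold change of 1.5, 302 (0.933 and 1.48%) without H1 and H3, and 265 (0.821 and 1.29%) with the multimapping share as a covariate. Without a filter on low counts, where more genes are tested, 3.11% were lower. With all 32 Holstein samples in the fit there were 1657 DEG. DESeq2 called 1503 DEG with the block, and all DEG tested in each of the 21 settings kept their direction. Genes at lower levels were the majority in every setting, from 53.2% (test against a fold change of 1.5) to 64.9% (at least 10 counts in every sample). The cause of these shifts was not tested. The interaction gave 0 DEG under each alternative run, with or without the replicate block. Of the named genes, ENSBTAG00000030629 lost its call under 5 of 20 alternatives, ENSBTAG00000003794 under 1 of 20 (adjusted p = 0.0669 with the covariate), ENSBTAG00000000888 under 1 of 21 and ENSBTAG00000017405 under none of 20, and no direction turned. The alternative without haemoglobin genes was not run, since it needs gene symbols. At these depths genes near 0.1 CPM rest on a few counts.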

Other observations

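A further 405 genes passed the adjusted p threshold between 72 h and 168 h (edgeR) with a change under 1.5-fold, 184 of them at higher levels at 168 h. The change of each calf, taken over all genes tested, correlated across genes with the mean change of the other 7 calves at 0.713 in H1, 0.322 in H2, 0.551 in H3, 0.709 in H4, 0.245 in H5, 0.58 in H6, 0.655 in H7 and 0.496 in H8, and genes are not independent replicates. H2 was the calf with the fewest genes changed by 2-fold or more (3.31%), and its share of multimapping reads was 13.7% at both ages.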
